A study of Mus musculus with 2 samples.

Results

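The metallothioneins and zinc transporters described here are 9 genes, the metallothioneins Mt1 and Mt2, the importers Slc39a1, Slc39a4, Slc39a5, Slc39a8 and Slc39a14, and the exporters Slc30a1 and Slc30a10. They were read from every spot on the arrays that is not a control and carries one of these gene names, which gave 10 probes of 39390 and 9 genes of 30153. Mature hepatocytes (MHs) of healthy liver were set against Sox9+EpCAM- cells of mice that received DDC, a dietary compound that injures the bile ducts chronically. Both kinds of cells came from Sox9-EGFP mice, in which GFP reports Sox9 expression. Both samples are labelled male, but sex-linked genes, given below, went against this label for MHs. MHs were purified by Percoll gradient centrifugation without sorting, whereas the Sox9+EpCAM- cells were selected by FACS as GFP+EpCAM- cells, so the diet, the purification and the cell selection cannot be told apart. The number and age of the mice behind each RNA and the duration of DDC feeding for this array are not given in the sources used here.

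Zinc enters the cytosol through transporters of the Slc39 (ZIP) family and leaves it, for the outside of the cell or for organelles, through transporters of the Slc30 (ZnT) family. Metallothioneins are small cysteine-rich proteins that bind zinc and copper in the cytosol. When free zinc rises, the transcription factor MTF-1 (Mtf1) binds metal response elements in the promoters of the metallothionein genes and of Slc30a1 and raises their transcription, and in the liver metallothioneins are also induced in the acute phase response and by glucocorticoids.

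Cy3-labelled RNA of each group was put on 1 array, and the arrays shared a slide and a scan. With 1 array a group there is no SD and no test, so the number of arrays limits the precision, and each value below describes these 2 arrays. The array of Sox9+EpCAM- cells was brighter, with a 75th percentile of 1110 against 741 for MHs, a ratio of 1.5, and all differences below are relative to this percentile unless stated otherwise. Spots that carry an identical probe differed by a median SD of 0.08 (log2 scale) for probes with an intensity of 100 to 1000 and 0.06 for brighter ones on each array, which covers the spots of an array and not the mice. These SDs come from probes with at least 8 spots. Each member probe has 1 spot, so no spot error was measured for the members. A 4-fold difference was used as the rule of size.

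The labels were set against sex-linked genes and cell markers. Xist, the non-coding RNA of the inactive X chromosome, was well above background with 2 of 2 probes in MHs and 0 of 2 in Sox9+EpCAM- cells. For 4 Y-linked genes (Ddx3y, Eif2s3y, Kdm5d and Uty), 0 of 5 probes were well above background in MHs and 4 of 5 in Sox9+EpCAM- cells. These genes thus read as female in MHs, against the label of male, and as male in Sox9+EpCAM- cells, and the part of sex in the results below was not tested. Epcam read 139 in MHs and 2770 in Sox9+EpCAM- cells, 13.3-fold higher in cells labelled EpCAM-. Sox9 itself was well above background in Sox9+EpCAM- cells only (8.87 and 60.7).

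Markers of several cell types moved with the groups. Alb, which encodes albumin, was bright in both groups (207000 in MHs and 170000 in Sox9+EpCAM- cells). The 7 hepatocyte markers were all lower in Sox9+EpCAM- cells (median log2 difference -0.87, from -2.46 to -0.22), and their summed intensity, in units of the 75th percentile, was 920 in MHs and 483 in Sox9+EpCAM- cells. This direction depended on the scaling, since 5 of the 7 were lower with Gapdh and 4 of 7 with quantile normalization or without scaling. All 7 fibroblast markers were higher (summed 12.1 and 44.5), with a median of 2.77 that is the lower bound of Lum. This was 6 of 7 with normexp, quantile normalization or the deposited table, and with normexp the median was 1.48. Of 7 cholangiocyte markers 5 were higher (summed 2.27 and 48.9, most of it Spp1), with a median of 0.53 that is the lower bound of Sox9. With normexp 4 of 7 were higher with a median of 0.09, and with Gapdh or without scaling 6 of 7. All 6 leukocyte markers were lower (median -2.85, summed 24.7 and 2.29), or 5 of 6 with Gapdh or without scaling. The 4 endothelial markers above background of 5 were lower too (median -2.24, or -1.51 with normexp, summed 5.90 and 1.98). Lyve1 was above background on no array. The part of these cells in the results below was not tested, and in bulk RNA fewer cells of a type and less RNA per cell cannot be told apart.

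The 9 genes did not move together. In Sox9+EpCAM- cells Slc39a4 was 12.8-fold higher, the metallothioneins Mt1 and Mt2 were within 2-fold by their brightest probes, and the importers Slc39a1, Slc39a5 and Slc39a8 and the exporter Slc30a10 were between 3.60-fold and 4.59-fold lower. Counting Mt2, which lay at 0.00, 4 genes were above 0 and 5 below, with a median log2 difference of -0.67, where the median over genes measured on both arrays was -0.19. At least 4-fold higher was 1 of 9 genes against 5.59% of the 23417 genes well above background on at least 1 array, and at least 4-fold lower were 2 of 9 against 5.57%. With a 2-fold rule it was 1 of 9 higher against 14.2%, and 4 of 9 lower against 16.7%. All 10 probes were well above background on both arrays, with no outlier or saturation flag, so none of these values is a bound.

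**Figure D1:**
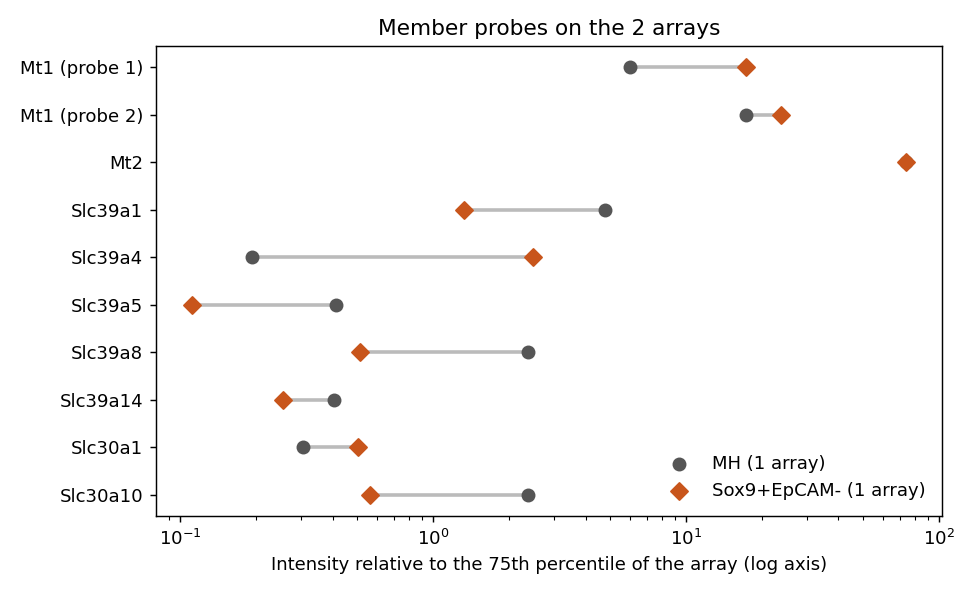
Intensity of each member probe relative to the 75th percentile of its array (log axis), with 1 point for the MH array and 1 for the Sox9+EpCAM- array joined by a line, and no error bars because each group has 1 array. Slc39a4 had the longest line, from 143 to 2750 in intensity before scaling, the points of Mt2 coincide, and Mt1 probe 2 is its brighter probe.

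Mt2 was bright on both arrays and did not differ after scaling. Its probe (chromosome 8, 96697371 to 96697430, mm9) had an intensity of 54800 in MHs and 82100 in Sox9+EpCAM- cells. The ratio of these intensities, 1.5, equals the ratio of the 75th percentiles, so the log2 difference was 0.00. This value turned with the scaling, and it was -0.18 with the deposited table and 0.58 without any scaling between arrays, so no direction is given for Mt2.

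Mt1 was read by 2 probes that gave different sizes. The brighter probe (chromosome 8, 96704165 to 96704224) had an intensity of 12800 in MHs and 26200 in Sox9+EpCAM- cells, which is 1.37-fold higher after scaling (log2 difference 0.45). The other probe, at 96703844 to 96703903, read 4450 and 19100, or 2.87-fold higher (log2 difference 1.52). The array design lists 1 RefSeq transcript for the brighter probe and 0 for this one, which it assigns to Mt1 through an Ensembl transcript. The probes agreed in direction but lay 1.07 apart. Gaps of this size are common on the array, since of 3274 genes with 2 probes measured on both arrays 32.5% differed by at least as much (median gap 0.66).

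The remaining metallothioneins and their regulator gave no common direction either. Mt3, the metallothionein best known from the brain, was 557 in MHs and 1370 in Sox9+EpCAM- cells (log2 difference 0.72). Mt4, known from stratified epithelia, was 263 and 178 (-1.15). The brightest probe of Mtf1 was 1040 and 1080 (-0.53), a second was well above background in Sox9+EpCAM- cells only (at least 1.76-fold higher), and the dimmest was above background on no array. In the RefSeq annotation of GRCm38.p6 the 4 metallothionein genes are neighbours on chromosome 8, in the order Mt4, Mt3, Mt2, Mt1.

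The promoters of the members are shown because the core of the metal response element, the site of MTF-1, is what links metallothioneins and zinc exporters in the textbook account of zinc. The core was searched as TGCACNC and TGCGCNC, 7 letters on both strands, in RefSeq windows of 300 bases (250 before and 50 after a transcript start, GRCm38.p6). Of the 9 genes, 7 had a window, with 9 windows in all, and Slc39a4 and Slc39a14 had none. The 4 members with more than 1 core are printed below, 5′ to 3′ on the strand of the gene, from 250 bases before the start to 30 bases after it. Capitals mark the cores, those on the opposite strand included. The stretches are chr8:94178839-94179118 for Mt1, chr8:94172368-94172647 for Mt2, chr1:191906531-191906810 for Slc30a1 and chr1:185454598-185454877 for Slc30a10, all on the plus strand.
Mt1: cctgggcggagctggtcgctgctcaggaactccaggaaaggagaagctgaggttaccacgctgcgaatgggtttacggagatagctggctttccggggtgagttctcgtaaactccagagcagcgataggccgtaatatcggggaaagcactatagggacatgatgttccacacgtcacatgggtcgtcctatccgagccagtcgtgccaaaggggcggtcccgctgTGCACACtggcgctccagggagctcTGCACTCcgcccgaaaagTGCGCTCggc
Mt2: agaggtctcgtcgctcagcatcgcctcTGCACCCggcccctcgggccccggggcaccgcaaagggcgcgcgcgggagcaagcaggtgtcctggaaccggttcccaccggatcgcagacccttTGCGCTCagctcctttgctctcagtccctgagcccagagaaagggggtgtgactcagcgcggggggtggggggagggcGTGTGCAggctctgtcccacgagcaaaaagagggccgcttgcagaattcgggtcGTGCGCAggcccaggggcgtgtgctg
Slc30a1: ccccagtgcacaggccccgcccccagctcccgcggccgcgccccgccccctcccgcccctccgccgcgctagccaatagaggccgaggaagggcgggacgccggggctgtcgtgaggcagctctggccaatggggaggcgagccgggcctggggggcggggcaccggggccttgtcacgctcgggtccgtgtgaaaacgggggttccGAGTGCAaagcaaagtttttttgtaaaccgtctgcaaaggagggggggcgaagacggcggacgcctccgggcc
Slc30a10: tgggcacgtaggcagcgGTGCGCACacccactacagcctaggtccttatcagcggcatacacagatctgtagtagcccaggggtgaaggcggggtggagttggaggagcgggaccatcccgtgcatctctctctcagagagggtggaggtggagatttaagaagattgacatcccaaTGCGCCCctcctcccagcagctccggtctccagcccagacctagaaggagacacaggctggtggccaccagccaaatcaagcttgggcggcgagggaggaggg

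Mt2 held 4 cores, a number that 0.517% of 32851 windows of all genes reach. Counted with the start as base 1 and the base before it as -1, they lay at -223 to -217 and -128 to -122 on the strand of the gene and at -50 to -44 and 5 to 11 on the opposite strand. Mt1 held 3 cores on its own strand, at -23 to -17, 3 to 9 and 21 to 27, and 1.97% of windows hold at least 3. Slc30a10 also held 3, at -233 to -227 (opposite strand), -232 to -226 and -73 to -67, of which the first 2 overlap on opposite strands. Slc30a1 held 2, at -43 to -37 and at 31 to 37 on the opposite strand, the latter beyond the printed bases, and 7.11% of windows hold at least 2.

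Among the ZIP importers, Slc39a5 and Slc39a8 had 1 core in 1 of 2 windows each, which 25.7% of all windows match or exceed, and Slc39a1 had none in its window. A core is a match of letters, not a site shown to be bound, and a window covers the surroundings of 1 listed start only. The 4 genes printed differed by 0.45 (Mt1, brightest probe), 0.00 (Mt2), 0.73 (Slc30a1) and -2.08 (Slc30a10) on the log2 scale. The part of the cores in these differences was not tested.

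**Figure D2:**
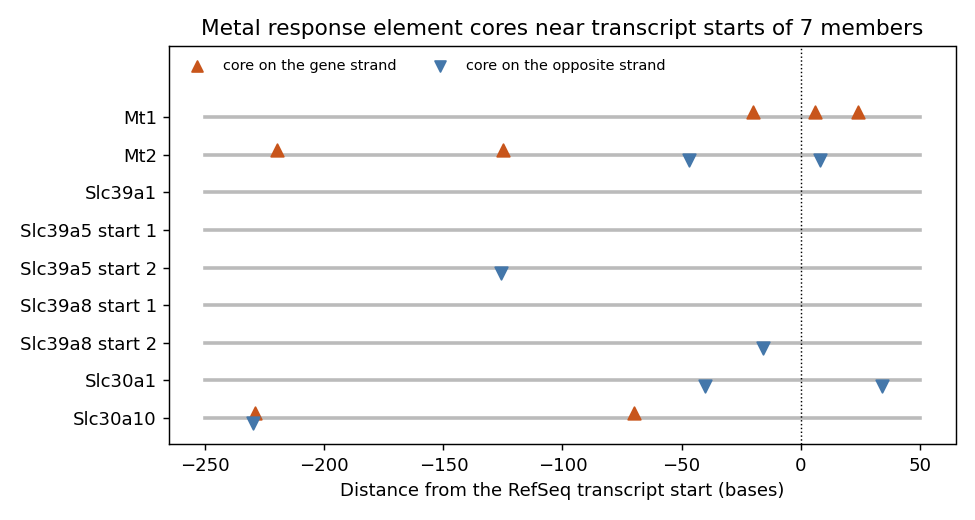
Position of each metal response element core (TGCACNC or TGCGCNC) relative to the RefSeq transcript start, in bases, in the 9 windows of 7 members, with the strand of each core shown by its marker. Mt2 had 4 cores, Mt1 and Slc30a10 had 3 each, Slc30a1 had 2, and the windows of the ZIP importers had 0 or 1.

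Of the 5 ZIP importers, Slc39a4 was higher and the other 4 were lower in Sox9+EpCAM- cells. Slc39a4 encodes ZIP4, the importer of dietary zinc in the intestine, whose loss causes the zinc deficiency acrodermatitis enteropathica. Its probe (chromosome 15, 76442866 to 76442925) had an intensity of 143 in MHs and 2750 in Sox9+EpCAM- cells. The ratio was 19.2 as measured and 12.8 after scaling, a log2 difference of 3.68, and 0.588% of genes measured on both arrays had a larger one. Of 11 alternative ways of processing, 5 cannot alter the value of a gene with 1 unflagged probe above background on both arrays, which holds for every member but Mt1. Under the 6 that can, Slc39a4 was at least 4-fold higher each time, from 3.14 to 4.27.

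Slc39a8 was the importer with the largest decrease. It encodes ZIP8, which carries zinc and manganese and recovers manganese from bile. Its probe (chromosome 3, 135551169 to 135551228) had an intensity of 1750 in MHs and 571 in Sox9+EpCAM- cells, 4.59-fold lower (log2 difference -2.20). Of the 6 alternatives that could move it, 4 left it at least 4-fold lower, and it was -1.93 when the arrays were scaled to Gapdh and -1.62 without scaling.

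Slc39a5 and Slc39a1 lay just outside the 4-fold rule. Slc39a5 encodes ZIP5, found at the basolateral side of polarized epithelia, and its probe spans 423 bases of chromosome 10 (127834340 to 127834762), more than its own 60 bases, and so crosses an exon junction. It read 306 in MHs and 123 in Sox9+EpCAM- cells, 3.73-fold lower (log2 difference -1.90). Slc39a1 encodes ZIP1, a widely expressed importer of the plasma membrane, and its probe (chromosome 3, 90057457 to 90057516) read 3530 and 1470, 3.60-fold lower (log2 difference -1.85). On the other side of the 4-fold rule the nearest member was Slc30a10 at -2.08, so the rule separates neighbours. Slc39a5 was past 4-fold under 2 of these 6 alternatives (-2.07 with the deposited table, -2.03 with quantile normalization) and Slc39a1 under 1 (-2.02 with the deposited table).

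Slc39a14 differed least among the importers. It encodes ZIP14, which carries zinc, manganese and non-transferrin-bound iron into hepatocytes and is induced by interleukin-6. Its probe (chromosome 14, 70703394 to 70703453) read 300 in MHs and 282 in Sox9+EpCAM- cells, nearly the same intensity as measured. After scaling the log2 difference was -0.67 (1.59-fold lower), and over the alternatives it ran from -0.85 to -0.09.

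The pair of ZnT exporters went opposite ways. Slc30a1 encodes ZnT1, the exporter that releases zinc across the plasma membrane and a classical MTF-1 target. Its probe (chromosome 1, 193736760 to 193736819) read 226 in MHs and 560 in Sox9+EpCAM- cells, 1.65-fold higher (log2 difference 0.73), and it was above 0 under each of the 6 alternatives that could move it. Slc30a10, which despite its family name exports manganese from hepatocytes and enterocytes, read 1760 and 623 (chromosome 1, 187292107 to 187292166). Its log2 difference was -2.08 (4.23-fold lower), and it was -1.91 with normexp background correction, -1.81 scaled to Gapdh and -1.50 without scaling, so its place past 4-fold depended on the processing.

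The distance between the highest and the lowest member, Slc39a4 and Slc39a8, was 5.88 on the log2 scale, and a constant factor between the arrays cannot alter it. Normexp background correction, which is not a constant factor, made it smaller, with Slc39a4 at 3.14 and Slc39a8 at -2.03.

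**Figure D3:**
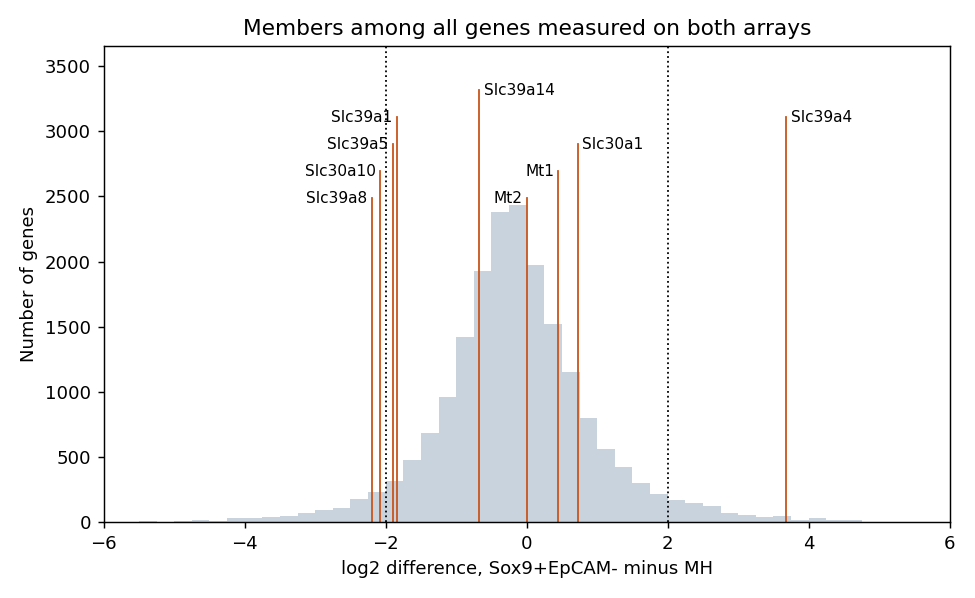
Histogram of the log2 difference (Sox9+EpCAM- minus MH) over the 19232 genes measured on both arrays, with a line for each member and dotted lines at 4-fold (line heights carry no value). Slc39a4 stands in the right tail at 3.68, Slc39a8 and Slc30a10 lie just past the left dotted line, and Mt1, Mt2, Slc30a1 and Slc39a14 lie in the body of the distribution.

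The sizes of the differences, more than their directions, depended on how the arrays were set against each other. Under the alternatives that could move them (8 for Mt1 and 6 for each other gene), Mt1, Slc39a4 and Slc30a1 stayed above 0, Slc39a1, Slc39a5, Slc39a8, Slc39a14 and Slc30a10 stayed below 0, and Mt2 alone lay on either side. Scaling to Gapdh, itself 1.20-fold lower after the main scaling, raised every difference by 0.27, and leaving out the scaling raised it by 0.58. Over all genes the split of at least 4-fold higher and lower genes then moved from 1309 and 1304 to 1650 and 1006 with Gapdh and to 2211 and 726 without scaling, and 0 of 9 members were at least 4-fold lower under either.

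**Figure D4:**
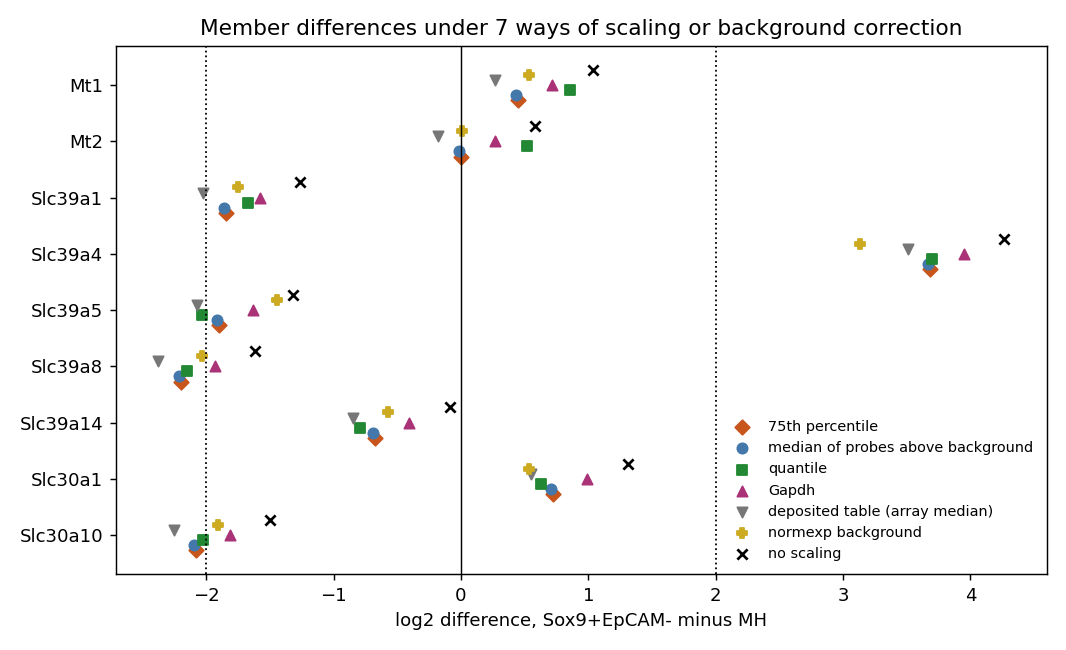
Log2 difference (Sox9+EpCAM- minus MH) of each member under 7 ways of scaling or background correction, with 1 symbol for each way. Slc39a4 stayed right of 3 throughout, Mt2 lay on both sides of 0, and the symbols of Slc39a1, Slc39a5, Slc39a8 and Slc30a10 fell on both sides of the 4-fold line at -2.

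The other genes of both transporter families were read the same way. Of 9 further Slc39 genes, 7 were well above background on at least 1 array, and 0 of them had a value or bound past 4-fold, where 5.59% of all genes were at least 4-fold higher and 5.57% lower. Slc39a3 and Slc39a6 were above background in Sox9+EpCAM- cells only, with lower bounds near 0, so a larger difference of these 2 could not be measured. By the 2-fold rule 3 were higher (14.2% of all genes) and 0 lower (16.7%), with a median of 0.01 on the log2 scale, itself the lower bound of Slc39a6, against -0.04 over all 23417 genes with bounds included. The 3 genes, named after their values were seen, were Slc39a7 (1510 and 5500, 1.28) and Slc39a13 (47.5 and 188, 1.40), which release zinc from the endoplasmic reticulum and Golgi into the cytosol, and Slc39a11 (207 and 1170, 1.92, its dimmer probe 0.89). When the arrays were scaled to Gapdh, 1 of the 7 genes was at least 4-fold higher (7.05% of all genes). Without scaling 1 was at least 4-fold higher (9.44% of all genes), all 7 were higher and the median was 0.60. Slc39a2 and Slc39a12 were above background on no array.

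Of 8 further Slc30 genes, 7 were well above background on at least 1 array, 2 of them (Slc30a3 and Slc30a4) in Sox9+EpCAM- cells only and so with lower bounds. None had a value or bound past 4-fold, where 5.59% of all genes were higher and 5.57% lower by this rule, and the median log2 difference was -0.47. Without scaling 1 was at least 4-fold higher (9.44% of all genes), all 7 were higher and the median was 0.11. Slc30a3, chosen after its values were seen, was the 1 gene past 2-fold, where 14.2% of all genes were higher and 16.7% lower, and was well above background in Sox9+EpCAM- cells only (29.1 and 140, at least 3.21-fold higher). Slc30a7 was read by 3 probes that disagreed in direction, with log2 differences of 1.57, -0.40 for the brightest, and -1.14. Slc30a8, the zinc transporter of insulin granules, was above background on no array.

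**Figure D5:**
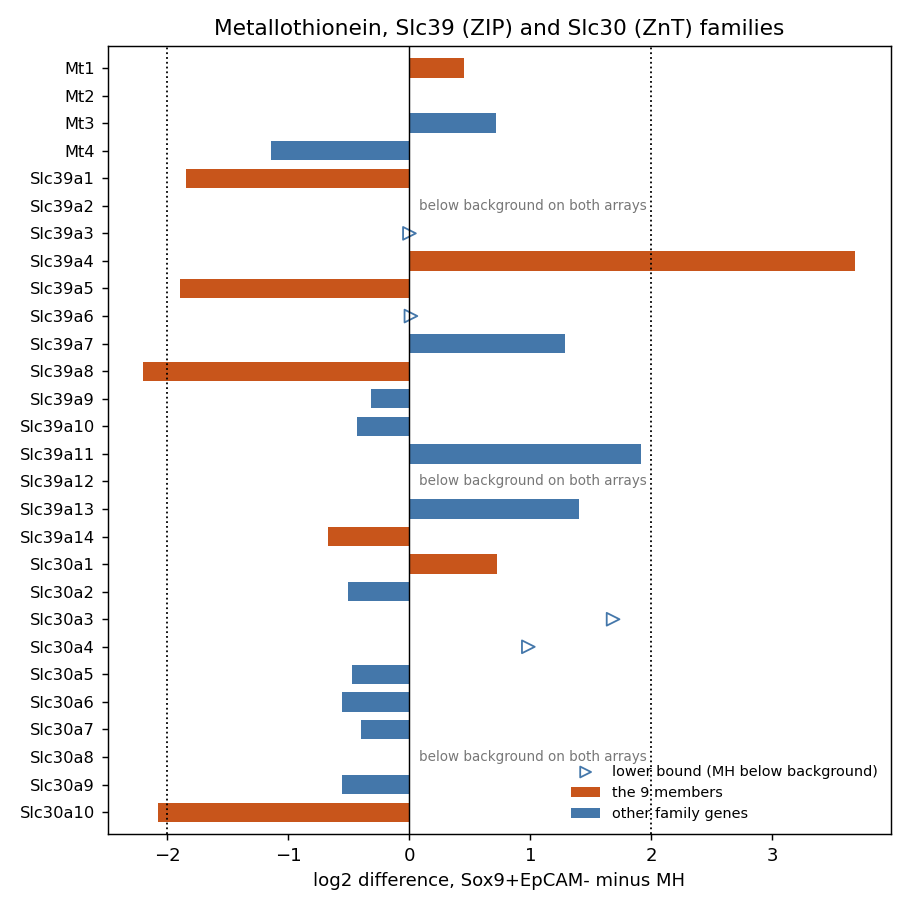
Log2 difference (Sox9+EpCAM- minus MH) of each gene of the metallothionein, Slc39 and Slc30 families, with the 9 members coloured apart from the other genes, triangles for lower bounds and dotted lines at 4-fold (Mt2 lies at 0.00, so its bar has no length). Slc39a4 at 3.68 lies furthest right, Slc39a8 at -2.20 and Slc30a10 at -2.08 furthest left, no value or bound of the other genes is past 4-fold, and the 4 triangles leave larger differences possible.

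Copper handling genes, whose metal metallothioneins also bind, were spread around 0. Of 9 genes, 1 was at least 4-fold higher (5.59% of all genes) and 1 at least 4-fold lower (5.57%), with a median log2 difference of -0.09 that was 0.18 with Gapdh and 0.49 without scaling. With normexp or without scaling 0 were at least 4-fold lower (2.82% and 3.1% of all genes). Atp7a, a copper-exporting ATPase little used by adult hepatocytes, was 252 in MHs and 1940 in Sox9+EpCAM- cells (5.14-fold higher). Its relative Atp7b, which loads copper into ceruloplasmin and bile in hepatocytes, was 1430 and 4590 (2.14-fold higher). Cox17, the copper chaperone of cytochrome oxidase, was well above background in MHs only (69.8 and 17.2, at least 5.68-fold lower), while its dimmest probe was well above background in Sox9+EpCAM- cells only.

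Zinc-dependent enzymes of the liver were mostly lower. Of 10 genes 9 were lower (8 without scaling), 4 of them at least 4-fold (5.57% of all genes). The median log2 difference was -1.67, against -0.87 for the 7 hepatocyte markers and -0.19 for all genes measured on both arrays. The ranges overlapped, from -4.93 to 0.76 for the enzymes and from -2.46 to -0.22 for the markers. Car3, a carbonic anhydrase abundant in hepatocytes, was 52500 in MHs and 2580 in Sox9+EpCAM- cells (30.5-fold lower). Car5a, the mitochondrial carbonic anhydrase, was 14.1-fold lower, Sord, which oxidizes sorbitol, 13.0-fold lower, and Alad, an enzyme of heme synthesis, 6.59-fold lower. Alpl, alkaline phosphatase, was the exception (113 and 287, log2 difference 0.76).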

How the data were processed

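RNA of 2 samples was measured on 1-colour Agilent arrays, 1 array a group. The authors deposited the intensity of each spot as Feature Extraction 10.7.3.1 wrote it, background-subtracted and not normalized between arrays. The deposited table holds ratio values, which a comparison with the scanner values showed to be the intensity divided by the median over 43020 non-control spots of its array. Probe positions are on mm9; whether a probe lies in a coding exon or a UTR is not given in the sources used here.

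After control and outlier spots were left out, log2 intensities were expressed relative to the 75th percentile of their array, and spots of a probe were averaged. The probe with the highest mean stood for a gene, and for the 9 members every probe was read. A probe not well above background on 1 array entered as a bound, set by its own signal or, if larger, by the dimmest signal well above background there (27.8 for MHs, 18.4 for Sox9+EpCAM- cells). All 9 member names are current symbols in RefSeq GRCm38.p6. The text names all members, genes at least 4-fold different in the metal, enzyme, acute phase and glucocorticoid lists, Gapdh, and Xist with 4 Y-linked genes. Cell type markers are given by counts. Any further gene was chosen for naming once its values were known. The members and lists were chosen with earlier results of these data known.

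Alternatives were normexp (limma 3.58.1, R 4.3.3, offset 50), quantile normalization, scaling to Gapdh or to the median of the probes above background in both groups, the median probe, the probe with the largest difference, outlier spots kept, the deposited table, plain differences, only genes above background on both arrays, thresholds of 2-fold and 10-fold, and no scaling between arrays, which was chosen after seeing the data. Calculations used pandas 2.3.3 and numpy 2.4.6 in Python 3.11.15, and the procedure was tested on simulated data.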

Additional observations from a re-analysis of the deposited data

How the results depend on the processing

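Of 99 member values recomputed under 11 alternatives, 43 could not move, since the alternative does not touch a probe of that kind. Of the other 56, 1 moved by over 1.5-fold (Mt1 by its probe with the largest difference, 1.52) while Mt2 changed sign between -0.18 and 0.58. These 56 values are not separate checks, since an alternative scaling by a constant moves all members by about the same amount. Leaving out the scaling moved each member by a factor of 1.498, just under the cut of 1.5-fold. Slc39a4 was the 1 member at least 4-fold higher under every alternative, the 10-fold threshold included. The number of members at least 4-fold lower, 2 in the report, was 1 with normexp, 0 with Gapdh, 4 with the deposited table, 0 without scaling between arrays and 3 with quantile normalization, and it was 4 with a 2-fold and 0 with a 10-fold threshold. The median of the members ran from -0.85 (deposited table) to -0.09 (no scaling). The median of all genes shifted by 0.27 with Gapdh, -0.18 with the deposited table and 0.58 without scaling. Over all genes, the numbers higher and lower were 1309 and 1304 in the report, 612 and 660 with normexp, 1228 and 1414 with quantile normalization, 1130 and 1563 with the deposited table, 1650 and 1006 with Gapdh, 758 and 914 for genes above background on both arrays, 2211 and 726 without scaling, 3319 and 3918 at 2-fold, and 363 and 344 at 10-fold. The causes were not tested. No paired analysis was possible because there is 1 array a group, and for the same reason leaving out a replicate and the slide as a block were not run. Signals under 27.8 in MHs and 18.4 in Sox9+EpCAM- cells could not be measured.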

Other observations

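Of 11 acute phase genes, 3 were higher in Sox9+EpCAM- cells and 8 lower (5 and 6 with quantile normalization, 5 and 5 without scaling), with a median log2 difference of -0.58, a lowest value of -1.53 (Orm2), and a median over genes measured on both arrays of -0.19. Lcn2, an iron-siderophore binding protein, was the 1 gene at least 4-fold higher (5.59% of all genes), with an intensity of 548 in MHs and 7360 in Sox9+EpCAM- cells (8.97-fold higher). The serum amyloid genes Saa1 (55900 and 43200) and Saa2 (17800 and 13200), secreted by hepatocytes in the acute phase, had log2 differences of -0.95 and -1.01. Saa3, also a serum amyloid gene, went the other way (994 and 2360, 0.66).

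Of 5 glucocorticoid-induced genes, 2 were at least 4-fold lower (5.57% of all genes) and 3 were higher, none of these by 4-fold (5.59%), with a median of 0.55. With Gapdh 1 was at least 4-fold lower (4.3% of all genes). Without scaling 1 was at least 4-fold lower (3.1%) and 1 at least 4-fold higher (9.44%). Fkbp5, a co-chaperone of the glucocorticoid receptor, was 2160 in MHs and 713 in Sox9+EpCAM- cells (log2 difference -2.18), and Tsc22d3, known as GILZ, was 267 and 34.2 (-3.55). Per1, a clock gene, was 120 and 504 (1.49), while its other probe gave 0.03.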
